A study of Homo sapiens with 6 samples.

Results

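The genes described are 10 glutathione transferases expressed in PATU8988, a human pancreatic cancer cell line, and measured in cells with and without a hairpin against CLIC1. They were chosen by name from a table of 60831 genes: GSTP1, GSTO1, GSTO2, GSTK1, GSTZ1, GSTM2, GSTM3, GSTM4, GSTA4 and GSTCD, each present in 1 row. The study sequenced RNA from 3 libraries with a control hairpin (shNC) and 3 with a hairpin against CLIC1 (shCLIC1), and its title links CLIC1 to matrix stiffness and the Warburg effect in pancreatic cancer. Both groups received a lentiviral vector that also carries EGFP and puromycin resistance, and both were grown under puromycin until stable lines formed. The labels give neither hairpin sequences nor the number of hairpins, and they do not say whether libraries of a group came from separate infections. The p-values therefore reflect only how far these libraries differ, which may be technical. Values are TPM, a level per gene length scaled to the same total in each library, and the sequencing depth is unknown. In bulk RNA, fewer cells of a kind and less RNA per cell cannot be told apart.

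Glutathione transferases join the tripeptide glutathione to reactive, mostly oily compounds, which makes them soluble and ready for export from the cell. The cytosolic enzymes fall into classes named by Greek letters, and each protein has a thioredoxin-like domain that holds glutathione and a helical domain that holds the other substrate. CLIC proteins share this fold in their soluble form and resemble the omega class most, with a cysteine where other classes use a tyrosine or serine. In pancreatic and other carcinomas the pi class enzyme GSTP1 is the form best known for high levels and for resistance to drugs.

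The label of fold relatives was checked against the protein domains listed in the deposited table. CLIC1 carried 4 Pfam entries for transferase N-terminal or C-terminal domains. GSTO1 carried all 4 of these, GSTO2 carried 3, and GSTZ1, GSTM2 and GSTA4 carried 2 each. GSTP1, GSTM3, GSTM4 and GSTCD shared 1 entry with CLIC1. GSTCD had entries for the C-terminal domain but 0 for the N-terminal domain, beside methyltransferase domains. GSTK1, the kappa enzyme of mitochondria and peroxisomes, had 0 transferase domain entries and a DsbA-like thioredoxin domain instead, so the table does not list it with the fold that CLIC1 has.

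CLIC1 was lower in every knockdown library, and the reduction was partial. Its level was 313, 311 and 297 TPM in control and 219, 210 and 204 TPM in knockdown, which left 68.8% of the control mean. The log2 fold change was −0.54 (SE 0.0407, limma adjusted p = 0.00345). Across the whole table, 246 of 14135 tested genes, 1.74%, had an adjusted p under 0.05, 0.778% lower and 0.962% higher in knockdown, and 15.6% had an unadjusted p under 0.05. Mitochondrially encoded genes took between 17.1% and 18.0% of each library. Of 6 epithelial markers 4 rose (EPCAM, KRT8, KRT18 and KRT19), while KRT7 (1.41 and 2.82 TPM, adjusted p = 0.0767) and CDH1 (136 TPM in control and 123 TPM in knockdown, adjusted p = 0.354) did not pass. The summed level of all 6 was between 9435 and 9701 TPM in control and between 11207 and 11684 TPM in knockdown, most of it KRT8 and KRT18. Fibroblast, leukocyte, endothelial and acinar markers each summed to under 5 TPM in every library, with COL1A2, DCN, LUM, PTPRC, CD3E, CDH5, KDR, CPA1, CELA3A and PNLIP at 0. The part of these marker differences in the transferase values was not tested.

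Of the 10 transferases 2 passed the test. The mu class transcripts GSTM4 and GSTM3 fell, GSTM2 of the same class was lower in every knockdown library without passing the test, and the other 7 members did not pass. All 10 were above the level filter of 1 TPM. The 2 calls among 10 members, both lower, stand beside 0.778% of all tested genes called lower. The members were chosen with earlier results of these data known, so this contrast does not test for an excess of calls. Over the members the median log2 fold change was −0.075, against −0.0047 over all tested genes, and the median size of change was 0.12 against 0.11. Values of control and knockdown did not overlap for 4 members, GSTM2, GSTM3, GSTM4 and GSTA4, against 22.3% of the genes tested.

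**Figure D1:**
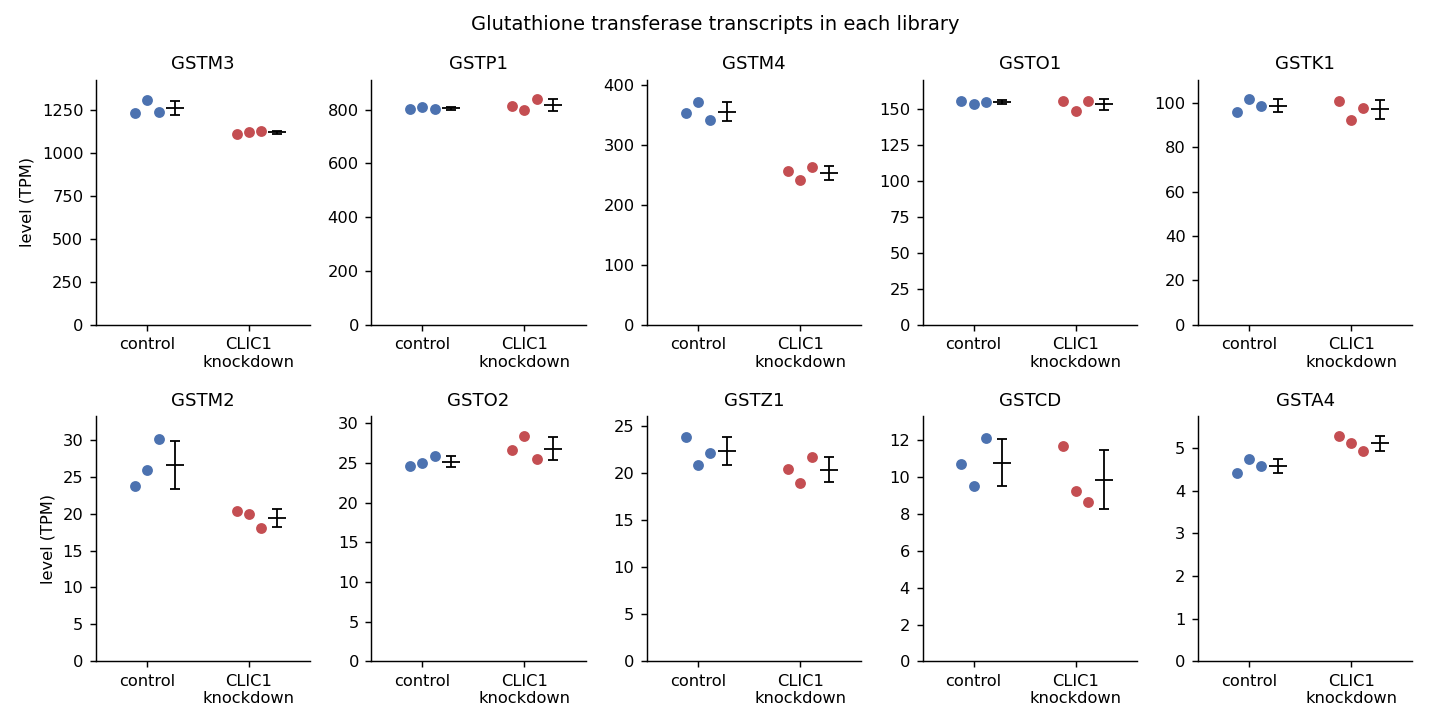
Level of each transferase transcript in TPM on a linear axis from 0, with 1 point per library, control in blue and CLIC1 knockdown in red; the black mark is the mean with its SD (n = 3). All knockdown points of GSTM4, GSTM2 and GSTM3 lie below all control points, and those of GSTA4 lie above.

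GSTM3 and GSTP1 supplied most of the transferase RNA. In control the mean levels were 1262 TPM for GSTM3, 805 TPM for GSTP1, 355 TPM for GSTM4, 155 TPM for GSTO1 and 98.7 TPM for GSTK1. The remaining members stood far lower, GSTM2 at 26.6 TPM, GSTO2 at 25.2 TPM, GSTZ1 at 22.3 TPM, GSTCD at 10.8 TPM and GSTA4 at 4.58 TPM. Neighbours in this order were separated in all control libraries except GSTM2, GSTO2 and GSTZ1, where GSTM2 overlapped with both of the others. GSTM3 made up 45.7% ± 0.542 (SD, n = 3) of the summed TPM of the 10 members in control and 44.4% ± 0.643 in knockdown. The share of GSTM4 was 12.8% ± 0.325 in control and 10.0% ± 0.297 in knockdown, and that of GSTP1 was 29.1% ± 0.455 and 32.4% ± 0.368. In knockdown GSTM2 lay below GSTO2 in all libraries, at 18.0 to 20.4 TPM against 25.4 to 28.4 TPM. These orders depend on the gene lengths the authors used. The length listed for GSTM4 is 657 bases, while its coding transcripts in GENCODE release 29 run from 657 to 3990 bases, so its level beside other genes is less certain than its change.

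The mu class genes lie side by side on chromosome 1. In GENCODE release 29 on GRCh38, GSTM4 (ENSG00000168765) spans 109656081 to 109674836, GSTM2 (ENSG00000213366) spans 109668022 to 109709551 and GSTM1 spans 109687814 to 109709039, all on the plus strand. GSTM3 (ENSG00000134202), at 109733932 to 109741038, lies on the minus strand inside the annotated span of GSTM5. GSTM4 and GSTM2 overlap on the same strand by 6815 bases.

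The sequences before the starts of these genes are shown because GSTM4, GSTM2 and GSTM3 were all lower in knockdown. Each is the 250 bases before the gene's start in RefSeq (GRCh38.p14), from chr1:109655849-109656098 for GSTM4, chr1:109667807-109668056 for GSTM2, chr1:109687567-109687816 for GSTM1, all on the plus strand, and chr1:109741039-109741288 for GSTM3 on the minus strand. Capitals mark stretches of at least 20 bases found unchanged in another of the 4 windows.
GSTM4: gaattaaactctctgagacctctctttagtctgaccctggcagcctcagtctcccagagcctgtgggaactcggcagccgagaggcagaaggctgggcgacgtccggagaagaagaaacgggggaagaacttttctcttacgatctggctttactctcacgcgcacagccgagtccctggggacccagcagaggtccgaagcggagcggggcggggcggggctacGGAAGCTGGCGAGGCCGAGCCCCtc
GSTM2: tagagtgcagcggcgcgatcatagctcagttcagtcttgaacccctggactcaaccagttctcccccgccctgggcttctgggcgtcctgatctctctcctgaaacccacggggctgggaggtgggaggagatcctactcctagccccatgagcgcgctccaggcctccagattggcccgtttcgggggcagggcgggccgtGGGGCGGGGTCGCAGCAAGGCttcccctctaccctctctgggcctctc
GSTM1: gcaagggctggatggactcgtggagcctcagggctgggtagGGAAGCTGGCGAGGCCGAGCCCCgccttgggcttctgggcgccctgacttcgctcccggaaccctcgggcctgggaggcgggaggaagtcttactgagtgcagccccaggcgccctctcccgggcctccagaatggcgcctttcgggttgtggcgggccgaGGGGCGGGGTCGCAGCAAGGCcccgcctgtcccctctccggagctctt
GSTM3: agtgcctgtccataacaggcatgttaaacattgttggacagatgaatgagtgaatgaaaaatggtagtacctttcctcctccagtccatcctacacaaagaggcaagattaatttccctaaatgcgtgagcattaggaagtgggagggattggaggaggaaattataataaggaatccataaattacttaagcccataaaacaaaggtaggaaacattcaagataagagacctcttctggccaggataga
GSTM4 and GSTM1 shared a run of 23 bases, which ended near the start of GSTM4 and lay further upstream in GSTM1. GSTM2 and GSTM1 shared a run of 21 bases that begins 48 bases before the start in both. GSTM3 had no run over 9 bases in common with GSTM4 and held 1 CpG dinucleotide, against 18 in the GSTM4 window, 14 in that of GSTM2 and 19 in that of GSTM1. The GC box GGGCGG, searched on both strands, occurred in the windows of GSTM4 and GSTM2 but not in that of GSTM3, and in 42.6% of 35116 windows of this size. The core of the antioxidant response element, to which NRF2 binds, is TGACNNNGC, and the AP-1 site is TGACTCA. Searched on both strands, neither was found in the GSTM4, GSTM2 or GSTM3 window. TGACNNNGC occurred in 10.9% and TGACTCA in 4.2% of the 35116 windows, so most windows lack each. The GSTM1 window held 1 match to TGACNNNGC, TGACTTCGC, which begins at position −165 from the start. The part of these sequences in the values was not tested.

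GSTM4, a mu class transferase, had the smallest p of the 10 members. It measured 353, 371 and 341 TPM in the control libraries and 256, 240 and 262 TPM after knockdown. Every knockdown library lay below every control library, with a gap wider than the range inside either group. The mean fell from 355 ± 15.3 to 253 ± 11.4 TPM (SD, n = 3), to 71.3% of control, a log2 fold change of −0.49 (SE 0.0480, 95% interval −0.60 to −0.37, adjusted p = 0.0102). By p-value GSTM4 ranked 21 among the 14135 tested genes, and CLIC1 ranked 9. Without 1 library in turn GSTM4 kept its call, with limma adjusted p from 0.018 to 0.0498, close to the threshold. The call of GSTM4 was lost in 2 of 14 other settings. In limma with replicate number as a term (adjusted p = 0.0577), 41 genes of the whole table were called. In limma without a mean-variance trend (adjusted p = 0.0738), 0 genes of the whole table were called, CLIC1 included. There 2040 genes had an unadjusted p under 0.05.

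GSTM3, a mu class form known from brain and testis, fell by a small amount. It measured 1235, 1311 and 1241 TPM in the control libraries and 1112, 1121 and 1129 TPM after knockdown. The groups did not overlap, and the knockdown libraries lay closer together than the control libraries. The mean went from 1262 ± 42.3 to 1120 ± 8.47 TPM, 88.8% of control. Its log2 fold change was −0.17 (SE 0.0302, 95% interval −0.24 to −0.10, adjusted p = 0.0428). This call sat near the threshold and was lost without any of the 6 libraries in turn (adjusted p from 0.0701 to 0.133, log2 fold change from −0.19 to −0.14). It also missed the threshold after trimmed-mean rescaling (adjusted p = 0.169) and in 12 of 14 other settings in all.

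GSTM2, a mu class form that also acts on oxidised catecholamines, varied more between control libraries than GSTM3 and GSTM4, with a coefficient of variation of 12.2% against 3.35% and 4.32%. It measured 23.7, 25.9 and 30.1 TPM in the control libraries and 20.4, 19.9 and 18.0 TPM after knockdown. The groups did not overlap, though control replicate 1 lay close to the nearest knockdown library. Its log2 fold change of −0.43 (SE 0.0973, 95% interval −0.65 to −0.20) had an interval that overlapped that of GSTM4, and without control replicate 1 it was the lower of the pair, at −0.50 against −0.49. GSTM2 did not pass (adjusted p = 0.0868; 0.0576 to 0.226 over 14 other settings).

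GSTM4 stood lower beside GSTM3 in every knockdown library than in any control library. The ratio of GSTM4 to GSTM3 in TPM was 0.286, 0.283 and 0.275 in control and 0.231, 0.215 and 0.233 in knockdown. The ratios did not overlap between the groups (two-sided exact permutation p = 0.1, which is the lowest value possible with 3 libraries a group). The ratio of GSTM4 to GSTM2 was 13.5 ± 1.91 in control and 13.1 ± 1.30 in knockdown, with overlapping values (exact permutation p = 0.9). Both GSTM4 ratios were chosen after the values were seen.

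**Figure D2:**
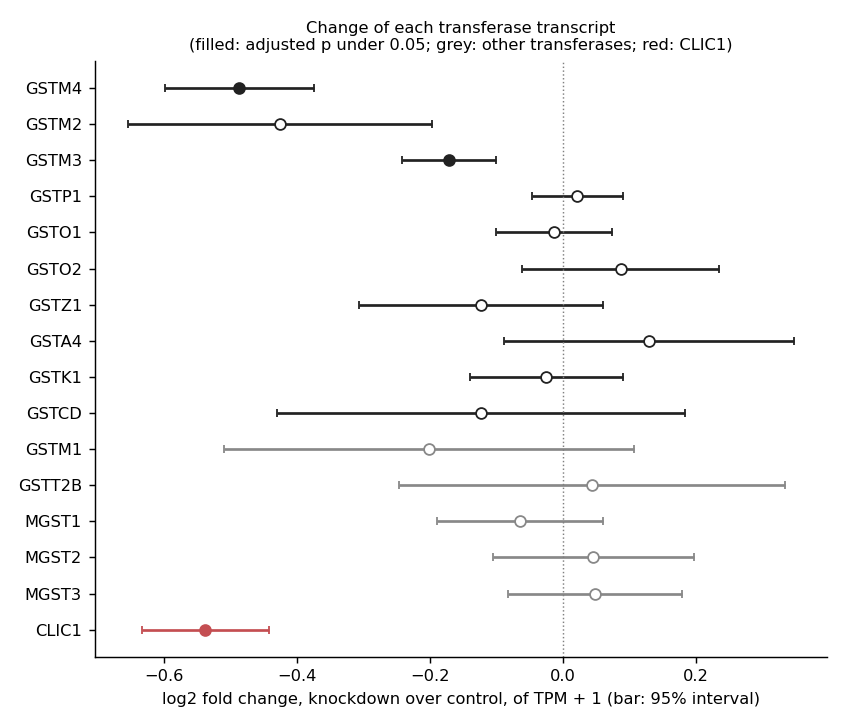
Log2 fold change of each transferase transcript, knockdown over control on the log2(TPM + 1) scale, with its 95% interval from limma; members are black, other transferases grey and CLIC1 red, and filled points passed the test. The intervals of GSTM4, GSTM2 and GSTM3 lie below 0, and those of the other 7 members include 0.

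Reads of GSTM4, GSTM2 and GSTM1 can be confused with each other, and those of GSTM3 less so. Of the distinct 50-base stretches in coding transcripts of GENCODE release 29, 16.8% for GSTM4, 37.8% for GSTM2 and 52.9% for GSTM1 also occurred in another mu class gene. At 100 bases the shares were 7.73%, 30.9% and 28.3%. GSTM3 shared 0% with other mu genes at either length. All these shares pool the coding transcripts of a gene, which for GSTM4 reach 3990 bases. For a GSTM4 form of the listed 657 bases the share was not computed. The summed level of GSTM1, GSTM2, GSTM4 and GSTM5 was 381, 402 and 375 TPM in control and 280, 263 and 284 TPM in knockdown, 71.5% of control. The labels do not state how shared reads were divided. Since TPM divides by a length that differs between these genes, a read given to the wrong one also moves the sum, and the part of shared reads in these values was not tested.

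Neighbouring genes on chromosome 1 were examined beside the mu class. Within 250 kb of the cluster, 13 genes were tested, 9 of them outside the class. By limma 0 of these 9 passed, with 2 at an unadjusted p under 0.05, where 15.6% of all tested genes had one. Log2 fold changes were negative for 6 of the 9 and for 7257 of all 14135 genes. EPS8L3, which overlaps the annotated span of GSTM5 on the opposite strand and was named after its values were seen, came nearest. It measured 33.7, 35.4 and 33.6 TPM in the control libraries and 28.4, 26.3 and 24.9 TPM after knockdown (log2 fold change −0.36, adjusted p = 0.0519). GNAI3 was at −0.22 (adjusted p = 0.317), while AMPD2, the nearest tested gene before GSTM4, was at 0.070 and CSF1 at 0.0070.

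**Figure D3:**
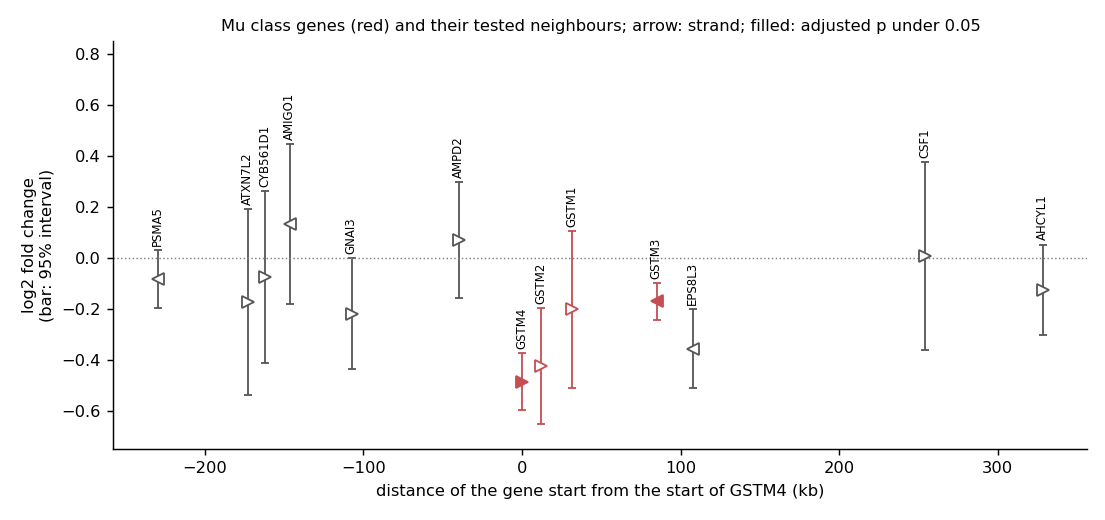
Log2 fold change of the 13 tested genes in and within 250 kb of the mu class cluster, against the distance of each gene's start from that of GSTM4 in kb; bars are 95% intervals, arrows give the strand, red marks mu class genes and filled points passed the test. GSTM4 and GSTM2, 11.9 kb apart, have the lowest values, followed by EPS8L3 at the other end of the cluster.

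The heptamer GTGCTGA was searched in annotated 3′ UTRs because it is frequent among genes that fell in these libraries. It occurred in at least 1 transcript of 50.5% of 97 searched genes called lower, 14.2% of 11489 uncalled genes and 3.88% of 129 genes called higher. Since the heptamer was chosen from these same data, the shares describe that choice and do not test it. Neither 3′ UTR length nor the number of transcripts was matched between these groups of genes. GSTM4 carried the heptamer in 1 of 4 searched transcripts and GSTM2 in 3 of 7. GSTM3 carried it in 0 of 3 and CLIC1 in 0 of 5. Of the members that did not pass, GSTCD carried it in 2 of 5 transcripts and GSTO2 in 1 of 3, while GSTP1, GSTO1, GSTK1, GSTZ1 and GSTA4 had 0. The gene table does not tell which transcripts these cells used, and the part of this sequence in the values was not tested.

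GSTP1 did not pass, and its interval around 0 was narrow. This pi class enzyme (ENSG00000084207, chromosome 11, 67583595 to 67586656, plus strand) measured 801, 810 and 803 TPM in the control libraries and 812, 797 and 841 TPM after knockdown. The groups overlapped. Its log2 fold change was 0.021 (SE 0.0291, 95% interval −0.047 to 0.090, adjusted p = 0.773), and its control libraries differed by a coefficient of variation of 0.581%. The sign turned without knockdown replicate 3, at −0.00014. The sequence before its start is shown as the textbook case of a transferase promoter under AP-1 and NRF2 control, at chr11:67583562-67583811 on the plus strand (RefSeq, GRCh38.p14). RefSeq places the start downstream of the GENCODE one, so most of this window lies inside the GENCODE span given above.
GSTP1: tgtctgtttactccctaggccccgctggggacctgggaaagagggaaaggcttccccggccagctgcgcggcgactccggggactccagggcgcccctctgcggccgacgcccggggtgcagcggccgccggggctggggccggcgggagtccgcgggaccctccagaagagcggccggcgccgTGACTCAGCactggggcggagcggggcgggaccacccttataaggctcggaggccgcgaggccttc
Capitals mark TGACTCAGC, which begins 66 bases before the start and holds the AP-1 site and the antioxidant response element core in overlap. The AP-1 site TGACTCA occurred in 4.2% and TGACNNNGC in 10.9% of the 35116 windows. Such a match describes the sequence only.

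Omega class transcripts, the nearest relatives of CLIC1 by domain content, did not pass. GSTO1, a thiol transferase and dehydroascorbate reductase (ENSG00000148834), lies on chromosome 10 from 104235356 to 104267459. Control libraries held 156, 153 and 155 TPM of it and knockdown libraries 156, 149 and 156 TPM. The values overlapped, and the log2 fold change was −0.014 (SE 0.0372, 95% interval −0.10 to 0.074, adjusted p = 0.902). Its neighbour GSTO2, likewise a dehydroascorbate reductase, measured 24.6, 25.0 and 25.9 TPM in the control libraries and 26.6, 28.4 and 25.4 TPM after knockdown. The log2 fold change of GSTO2 was 0.087 (95% interval −0.062 to 0.24, adjusted p = 0.570) and 0.046 without knockdown replicate 2. The RefSeq window before GSTO1 held 2 matches to TGACNNNGC, and that before GSTO2 held 0.

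The remaining members serve other reactions and did not pass. GSTZ1, the zeta enzyme that isomerises maleylacetoacetate in tyrosine breakdown, measured 23.8, 20.9 and 22.1 TPM in the control libraries and 20.4, 19.0 and 21.7 TPM after knockdown (log2 fold change −0.12, 95% interval −0.31 to 0.060, adjusted p = 0.505). GSTK1 measured 95.9, 102 and 98.4 TPM in the control libraries and 101, 92.4 and 97.8 TPM after knockdown (log2 fold change −0.025, 95% interval −0.14 to 0.090, adjusted p = 0.854). Both had overlapping groups. The value of GSTZ1 was −0.077 without control replicate 1 and −0.077 without knockdown replicate 2.

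GSTA4, the alpha class enzyme that clears the lipid peroxidation product 4-hydroxynonenal, was the least abundant member. It measured 4.41, 4.75 and 4.59 TPM in the control libraries and 5.27, 5.11 and 4.94 TPM after knockdown. The groups did not overlap, the knockdown libraries being higher, and the difference did not pass (log2 fold change 0.13, 95% interval −0.089 to 0.35, adjusted p = 0.562). GSTCD, named for its transferase C-terminal domain, measured 10.7, 9.53 and 12.1 TPM in the control libraries and 11.7, 9.23 and 8.64 TPM after knockdown, with the widest interval of the 10 (log2 fold change −0.12, 95% interval −0.43 to 0.18, adjusted p = 0.698). GSTCD overlaps INTS12 on the opposite strand along its whole span, introns included, and overlap between their exons was not measured. Its log2 fold change ran from −0.24 without knockdown replicate 1 to −0.044 without control replicate 3. It was −0.20 without control replicate 2 and −0.044 without knockdown replicate 3.

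Most other transferase genes were at 0 or under the filter. Of 10 other cytosolic transferase genes in the table, 6 were at 0 TPM in every library, among them the alpha class genes GSTA1, GSTA2, GSTA3 and GSTA5, and GSTM5 and GSTT2 were under the filter. GSTM1 measured 4.22, 3.88 and 3.06 TPM in the control libraries and 3.12, 2.99 and 3.13 TPM after knockdown (log2 fold change −0.20, 95% interval −0.51 to 0.11, adjusted p = 0.517). GSTT2B was at 6.63 and 6.86 TPM (means of control and knockdown). By limma 0 of these 2 tested genes passed, and 0 had an unadjusted p under 0.05. Of the microsomal family, MGST1, MGST2 and MGST3 stood at 127, 41.2 and 134 TPM in control and at 122, 42.5 and 138 TPM in knockdown. By limma 0 of 5 tested microsomal relatives passed, and 1 had an unadjusted p under 0.05, PTGES, the inducible prostaglandin E synthase (10.5 ± 1.33 TPM in control, 12.7 ± 0.268 TPM in knockdown, adjusted p = 0.275).

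Other proteins with a transferase-like domain include the remaining CLIC genes, the elongation factor subunit EEF1G, several aminoacyl-tRNA synthetases and the metaxins. Of 16 tested, CLIC1 fell and 15 did not pass, with 3 at an unadjusted p under 0.05, CLIC1 included, and a list median of −0.0066. When every gene that the table annotates with a transferase domain was counted, 28 were tested, with 3 lower and 0 higher by the test. Over all tested genes 0.778% were lower and 0.962% higher. The 3 were CLIC1, which the hairpin targets, and GSTM4 and GSTM3, which are members counted above.

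Enzymes that make, use and export glutathione were nearly all outside the threshold. In glutathione synthesis, supply and reduction, 1 of 10 genes rose and 0 fell, with 7 values negative and 3 genes at an unadjusted p under 0.05. Over all tested genes 0.962% were called higher and 0.778% lower, and 15.6% had an unadjusted p under 0.05 by limma. Groups did not overlap for 6 of the 10, against 22.3% over all tested genes. The gene that rose was SLC3A2, the heavy chain of the cystine and glutamate exchanger and of other amino acid transporters, with a control level of 281 ± 12.4 TPM and a knockdown level of 387 ± 8.78 TPM (log2 fold change 0.46, adjusted p = 0.00719). Its light chain in that exchanger, SLC7A11, was at 2.71 and 2.14 TPM (adjusted p = 0.426), and the glutamate-cysteine ligase subunits GCLC and GCLM were at 27.4 and 19.6 TPM in control and at 25.1 and 19.8 TPM in knockdown.

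Glutathione peroxidases and glutaredoxins had 0 of 9 genes past the threshold by limma and 2 at an unadjusted p under 0.05, beside 15.6% of all tested genes. The smallest p belonged to GPX3, a secreted peroxidase (27.5 and 32.6 TPM, adjusted p = 0.0843). Conjugate export and mercapturate formation had 0 of 13 by limma and 0 at an unadjusted p under 0.05, with ACY1, an aminoacylase, at 27.6 and 30.8 TPM (adjusted p = 0.340). The tyrosine breakdown genes around GSTZ1 had 0 of 2 by limma and 0 at an unadjusted p under 0.05, with HPD at 3.35 and 2.14 TPM (adjusted p = 0.735). Transcription factors known at transferase genes had 0 of 10 by limma and 1 at an unadjusted p under 0.05. That was JUN, an AP-1 subunit, at 17.3 and 22.2 TPM (adjusted p = 0.113), while NFE2L2, which encodes NRF2, stood at 53.2 and 52.7 TPM with an adjusted p of 0.952.

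**Figure D4:**
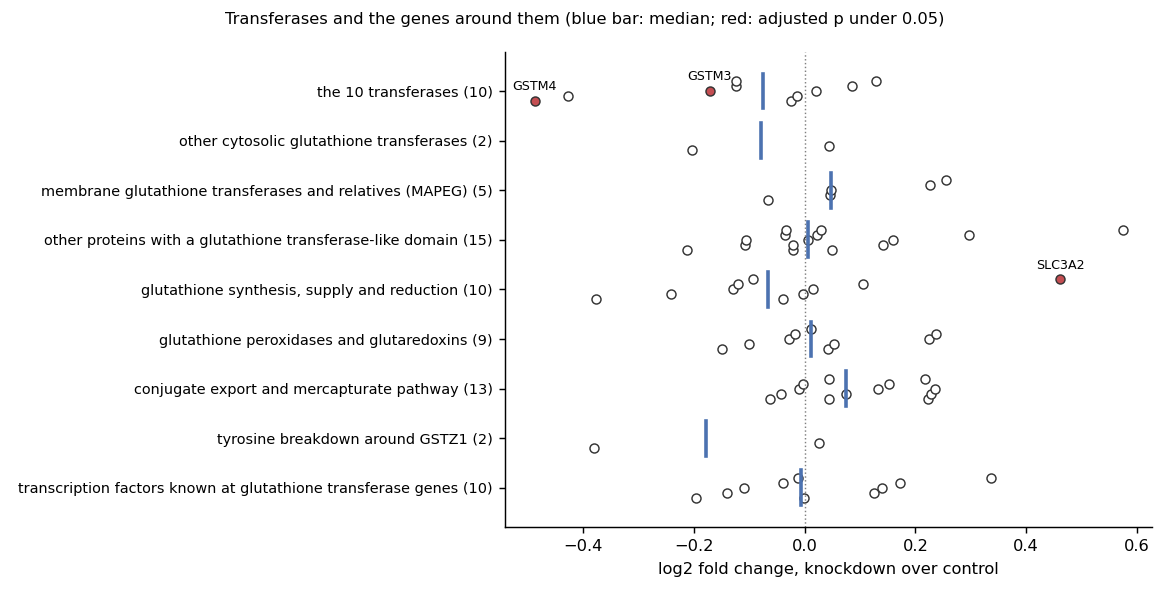
Log2 fold change of every tested gene in the 10 transferases and in each list of related genes, with the number tested in brackets; blue bars are medians and red points passed the test. CLIC1 is left out of its list, and the points that passed are GSTM4 and GSTM3 among the members and SLC3A2 in glutathione supply.

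The log2 fold changes of the mu class members were negative in every setting tried, which most settings could not have altered. Control and knockdown values did not overlap for these genes, so neither leaving out a library nor another pseudocount could turn a sign. Changing the filter, the trend or the replicate term leaves the log2 fold change as it is. Over 14 other settings the log2 fold change of GSTM4 ran from −0.52 to −0.45, that of GSTM2 from −0.50 to −0.34 and that of GSTM3 from −0.19 to −0.14. GSTM4 passed in 12 of these settings, GSTM3 in 2 and GSTM2 in 0.

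**Figure D5:**
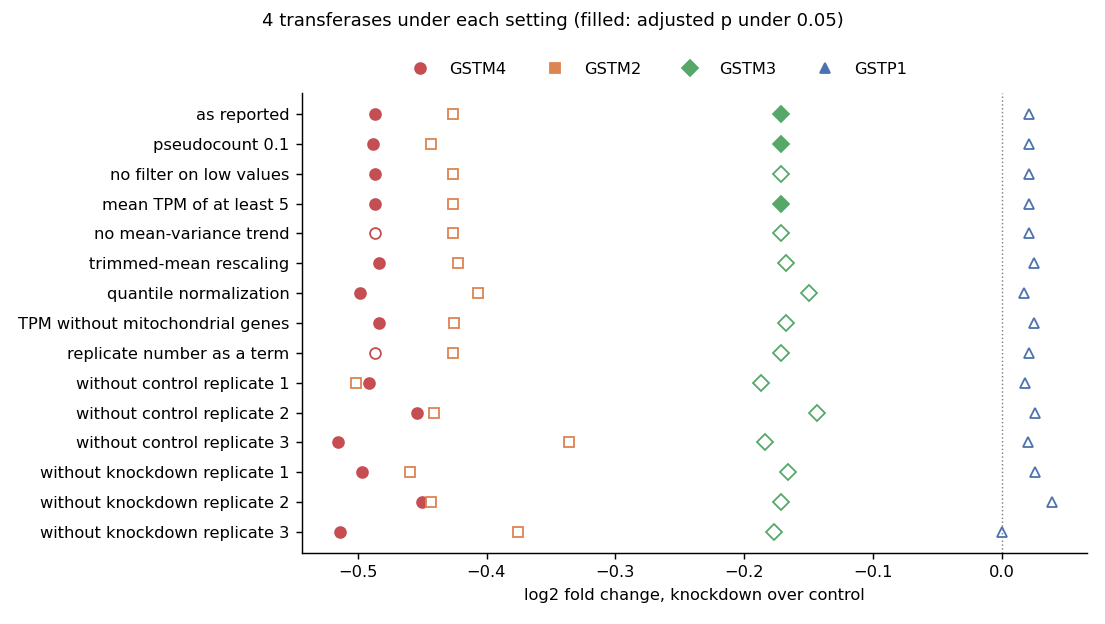
Log2 fold change of GSTM4, GSTM2, GSTM3 and GSTP1 as reported and under each of 14 other settings; filled symbols have an adjusted p under 0.05. GSTM4 stays filled in 12 of the 14 and GSTM3 in 2, while GSTP1 lies between −0.00014 and 0.039.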

How the data were processed

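RNA was measured in 3 control and 3 CLIC1 knockdown libraries of PATU8988 cells. The authors deposited 1 table of TPM for 60831 genes, and each library summed to between 999988 and 999992. GRCh38 and the tools RSEM, HISAT, fastp and edgeR are named in the submitters' processing notes, with versions, annotation release, strand and filters not given in the sources used here. Columns named NC were taken as control and those named S as knockdown, by replicate number. TPM keeps no depth, so counting error is unknown and no count model was used. The 2 columns of the authors' group means were not used.

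Values were taken as log2(TPM + 1), which understates changes of low genes. Genes with a mean of at least 1 TPM over the 6 libraries were tested, 14135 in all. Groups were compared in R 4.3.3 by limma 3.58.1, using its mean-variance trend, two-sided, with Benjamini-Hochberg adjustment over all tested genes and a threshold of 0.05. Tested on simulated data of this comparison with 14135 genes, the fit found 16% of 50 genes with a log2 change of 0.2, 38% at 0.3, 76% at 0.5 and 100% at 1, and 11 of 126 calls were false. Each simulated gene had the spread of the trend at its level, without the scatter of real genes around it. These rates may therefore be too favourable for the real data. The members and the 8 lists of related genes were chosen with earlier results of these data known. The genes named are the members, CLIC1, and from each list every called gene or the one with the smallest p; others were named after their values were seen. Positions and transcripts came from GENCODE release 29 and promoters from RefSeq, which matched 10 of 10 members. GSTT1 was not analysed here. The 14 alternatives covered pseudocount, filter, trend, scaling, replicate number and each library left out.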

Additional observations from a re-analysis of the deposited data

How the results depend on the processing

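The count of members called, 2 in the main test, was 0 without the mean-variance trend and 0 with a replicate block, each with 3 members at an unadjusted p under 0.05. It was 1 with no filter on low values, after trimmed-mean rescaling, after quantile normalization and when TPM was recomputed without mitochondrially encoded genes, and 1 without each library in turn (from 1 to 1). The remaining member was GSTM4 in all of these. Over all genes the count of 246 became 61 with no filter, 0 without the trend (2040 at an unadjusted p under 0.05) and 41 with the replicate block, and ranged from 34 to 242 without 1 library. CLIC1 lost its call without the trend, at −0.54 (adjusted p = 0.0730), and kept it in the other 13 settings. The list gene SLC3A2 was likewise lost there, which left 0 of 1 (adjusted p = 0.0730). With the replicate block GSTM4 had an adjusted p of 0.0577 and GSTM3 of 0.122. Same-numbered libraries did not deviate together (correlations of deviations from group means 0.0396, −0.0460 and −0.0132), so the numbers are not taken to pair the samples. Without 1 library the log2 fold change of GSTK1 ran from −0.053 to 0.0093, that of GSTO1 from −0.025 to 0.0084 and that of GSTP1 from −0.00014 to 0.039; signs turned without knockdown replicate 2 for GSTK1 and GSTO1 and without knockdown replicate 3 for GSTP1. The causes of these differences were not tested. GSTA4 gave no value at a mean TPM of at least 5. Scaling moved the median of all genes by less than 0.1 on the log2 scale. Depth is unknown, so the precision of low members such as GSTA4 and GSTCD cannot be stated beyond their spread.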

Other observations

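The table's annotated pathway of glutathione metabolism had 41 tested genes, of which 4 were lower and 0 higher by the test, with a median log2 fold change of 0.0069. Over all tested genes 0.778% were lower and 0.962% higher. The 4 were the members GSTM4 and GSTM3, counted above, and IDH1 and PGD. These last are the cytosolic isocitrate dehydrogenase and the phosphogluconate dehydrogenase, which both make the NADPH that glutathione reductase uses. IDH1 had a log2 fold change of −0.48 (adjusted p = 0.0102) and PGD of −0.37 (adjusted p = 0.0139). Glutathione reductase itself, GSR, was at 60.7 and 60.5 TPM. IDH1 and PGD were named after their values were seen.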
